A study of Mus musculus with 9 samples.

Results

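Abcc4 and 9 other carriers that move bile acids and related organic anions across the hepatocyte membrane were followed in mouse liver RNA. The genes were taken by name, as a list of 10 among the 52550 gene identifiers in each table, and all 10 were found. By their known place in the hepatocyte they were Abcc4, Abcc3 and Slc51b (export back to blood), Abcc2, Abcb11 and Abcb4 (export to bile), and Slc10a1, Slco1b2, Slco1a1 and Slco1a4 (uptake from blood). Livers came from 3 genotypes at 320 days, with 3 libraries each. Double-mutant mice carried p53+/- together with Tsc1fl/fl;Alb-Cre, Tsc1-deleted mice carried Tsc1fl/fl;Alb-Cre, and the p53-heterozygous mice carried p53+/- alone, and both other groups were set against them. The design text names 6 groups, and no liver with both genes intact was analysed here. Cre recombinase under the albumin promoter acts in hepatocytes and also in the embryonic hepatoblasts from which cholangiocytes arise, and p53-heterozygous mice keep a working allele. The protein p53 restrains tumour growth, and TSC1 keeps the growth kinase mTORC1 in check. The title frames the study as a search for markers of liver cancers lacking both, and the labels do not say whether the tissue sampled was tumour.

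Bile acids circulate between liver and gut. Hepatocytes take them up from sinusoidal blood mainly through NTCP, the sodium-dependent carrier encoded by Slc10a1, and through organic anion carriers of the Slco1 family, and pump them into the bile canaliculus through the bile salt export pump, encoded by Abcb11. Abcc4, Abcc3 and the 2-part carrier Slc51a and Slc51b sit on the blood-facing membrane and carry bile acids back out. Their transcripts are known to rise when bile flow is blocked, while Slc10a1 is known to fall. The bile acid receptor FXR (Nr1h4) is known to activate Abcb11 and Slc51b, and the stress factor NRF2 and the receptors CAR and PXR are known to act on Abcc2, Abcc3 and Abcc4.

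On the log2(FPKM + 1) scale, Abcc4 had the largest estimate of the 9 tested members in double mutants against either other group. It averaged 42.5 ± 10.1 FPKM in double-mutant, 11.5 ± 8.66 FPKM in Tsc1-deleted and 1.59 ± 2.48 FPKM in p53-heterozygous livers (SD, n = 3 each). FPKM scales reads to gene length and to the mapped reads of the library, so levels can be compared between genes. Against p53-heterozygous livers, Abcc4 was the 1 member of 9 tested that passed the test both as deposited and after every library had been scaled to the same total of nuclear protein-coding FPKM, called nuclear rescaling here. Of all 12014 tested genes, 31.9% and 2.12% were called higher on these scales. Between double-mutant and Tsc1-deleted livers no member passed, where 0.025% of genes did, although Abcc4 was higher in all 3 double-mutant libraries than in any Tsc1-deleted one, as were 11.4% of genes. The uptake carrier Slc10a1 and the export subunit Slc51b had the lowest estimates there, and neither passed.

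The p53-heterozygous libraries stood apart from the others and from each other, and this touches every comparison against them. All 9 libraries share 1 estimate of the spread per gene in the fit. The scatter of the p53-heterozygous libraries therefore also enters the SE and p value of double-mutant minus Tsc1-deleted livers. Mitochondrial genes made up 7.98% to 24.1% of the read signal (FPKM times gene length, summed over genes) in the 6 double-mutant and Tsc1-deleted libraries, and 68.0%, 55.9% and 25.5% in p53-heterozygous libraries 1, 2 and 3. On that measure the share of nuclear protein-coding genes was 65.9% to 87.3% in the 6 and 7.43%, 6.63% and 61.8% in the p53-heterozygous libraries. Rescaling multiplied p53-heterozygous libraries 1 and 2 by 10.3 and 11.1 and the other 7 by 0.957 to 1.33. The 12 hepatocyte markers checked were present in every library and summed to 24194 to 37416 FPKM in double-mutant and Tsc1-deleted libraries, and to 4333, 3936 and only 580 FPKM in p53-heterozygous libraries 1, 2 and 3. After rescaling, 14 cholangiocyte and progenitor markers summed to 2643 in p53-heterozygous library 3, against 165.3 and 120.4 in libraries 1 and 2, and 10 stellate and fibroblast markers to 957, against 121.2 and 82.3. The sum of 10 Kupffer cell and macrophage markers was 1172 there, against 248.5 and 205.5. Lyz2, a lysozyme of myeloid cells in general, gave 933 of the 1172. The other 9 markers summed to 239 there, against 135 and 115 in libraries 1 and 2. Among them the Kupffer cell markers Clec4f, Cd5l and Vsig4, named after their values had been seen, were lower in library 3 than in libraries 1 and 2. The rest of the 9 together were higher there, so the list went both ways. In library 3 the albumin transcript Alb stood at 149.5 FPKM, so the hepatocyte markers were low there, and fewer hepatocytes and less RNA per hepatocyte cannot be told apart in bulk tissue. The 7 erythroid markers summed to 1010, 1972 and 86.6 FPKM in p53-heterozygous libraries 1, 2 and 3, as deposited. In the 6 double-mutant and Tsc1-deleted libraries they summed to 24.4 to 451 FPKM. Depth was estimated at 10600000 to 18500000 reads per library. Tsc1 stood at 1.06, 1.14 and 1.04 FPKM in double-mutant, 0.767, 0.919 and 0.953 FPKM in Tsc1-deleted and 0.147, 0.253 and 0.993 FPKM in p53-heterozygous libraries. Whole-gene values count the undeleted exons and cells without Cre too, so they do not check the labels. Gene models on the opposite strand overlap Abcc4, Slc51b and Abcb11, and the labels do not say whether counting used strand, but those present in the tables reached at most 0.998 FPKM.

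The promoters of the members were read from RefSeq as windows of 250 bases before to 50 bases after each annotated start (build GRCm38.p6), and 9 of the 10 members matched, with 11 windows. Abcc3 had no entry. Short motifs were searched on both strands. The core of the antioxidant response element, the kind of site bound by NRF2, was spelled TGACNNNGC, and an inverted repeat of the kind bound by FXR was spelled GGNCANTGNCC. The core lay in 3 member windows, those at both annotated Abcc4 starts and at Abcc2, and in 4063 of all 32817 promoter windows (12.4%). The repeat lay in 2 member windows, at Abcb11 and Slco1b2, and in 222 of all windows (0.676%). The windows of Abcc4 at chr14:118706170-118706469 on the minus strand, Abcc2 at chr19:43782058-43782357 on the plus strand and Abcb11 at chr2:69342567-69342866 on the minus strand are printed 5′ to 3′ on the gene's strand, with the match in capitals. The other Abcc4 window and that of Slco1b2, which also hold a match, are not printed. The match begins 25 bases before the annotated start in Abcc4, where it reads on the opposite strand, 98 bases before it in Abcc2 and 62 bases before it in Abcb11. A match in these letters is a description of the sequence and does not show binding.
Abcc4: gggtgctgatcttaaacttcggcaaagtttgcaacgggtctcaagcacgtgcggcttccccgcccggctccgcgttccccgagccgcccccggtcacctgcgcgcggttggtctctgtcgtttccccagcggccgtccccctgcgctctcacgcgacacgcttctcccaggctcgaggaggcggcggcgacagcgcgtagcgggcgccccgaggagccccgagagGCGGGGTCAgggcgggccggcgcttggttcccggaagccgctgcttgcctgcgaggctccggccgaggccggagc
Abcc2: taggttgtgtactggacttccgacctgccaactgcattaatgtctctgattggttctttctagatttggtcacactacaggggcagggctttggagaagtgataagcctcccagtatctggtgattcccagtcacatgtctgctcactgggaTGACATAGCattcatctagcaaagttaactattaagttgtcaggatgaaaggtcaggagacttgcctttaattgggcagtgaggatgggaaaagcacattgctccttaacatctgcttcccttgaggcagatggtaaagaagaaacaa
Abcb11: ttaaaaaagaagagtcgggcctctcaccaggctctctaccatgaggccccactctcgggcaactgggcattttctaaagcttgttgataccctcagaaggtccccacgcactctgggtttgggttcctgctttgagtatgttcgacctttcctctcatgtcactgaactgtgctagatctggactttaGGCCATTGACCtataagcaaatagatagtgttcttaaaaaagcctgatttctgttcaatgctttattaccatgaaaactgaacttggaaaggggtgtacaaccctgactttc

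Abcc4 (ENSMUSG00000032849, chromosome 14) encodes MRP4, which exports bile acids together with glutathione, cyclic nucleotides and sulfated steroids across the blood-facing membrane. It stood at 38.6, 53.9 and 34.8 FPKM in double-mutant, 5.92, 7.20 and 21.5 FPKM in Tsc1-deleted and 0.202, 0.105 and 4.45 FPKM in p53-heterozygous libraries. The 3 groups did not overlap, the highest Tsc1-deleted value was that of library 3, and p53-heterozygous library 3 was far above the other libraries of its group. After nuclear rescaling the values were 37.2, 53.5 and 34.8 in double-mutant, 5.90, 7.56 and 20.6 in Tsc1-deleted and 2.07, 1.17 and 5.94 in p53-heterozygous libraries, so that Tsc1-deleted library 1 came just under the highest p53-heterozygous library and the double mutants stayed above all others. Double-mutant minus p53-heterozygous gave 4.47 ± 0.83 on the log2 scale as deposited (SE, limma adjusted p = 0.00518) and 3.55 ± 0.54 (limma adjusted p = 0.0219) after rescaling. The mean in double mutants was 26.8-fold that in p53-heterozygous livers as deposited and 13.7-fold after rescaling. By deposited means, Slc51b aside because it rests on about 4 reads in 1 p53-heterozygous library, Abcc3, at 31.9-fold, ranked above Abcc4, and after rescaling it stood at 4.93-fold. Double-mutant minus Tsc1-deleted gave 1.98 ± 0.83 on the log2 scale (limma adjusted p = 1, unadjusted p = 0.0284) as deposited, with a mean 3.68-fold that of Tsc1-deleted livers. After rescaling it gave 1.96 ± 0.54 (limma adjusted p = 0.88, unadjusted p = 0.00507). Tsc1-deleted minus p53-heterozygous gave 2.49 (limma adjusted p = 0.057) as deposited and 1.59 (limma adjusted p = 0.182) after rescaling. All log2 changes are on the log2(FPKM + 1) scale, which understates the change of low genes. The rescaled call against p53-heterozygous livers was lost without any 1 double-mutant library or p53-heterozygous library 1 or 2, with limma adjusted p of 0.0508 to 0.0846, and without p53-heterozygous library 3 the change was 4.03 (limma adjusted p = 0.000967). Estimated from the FPKM step that 1 read makes, Abcc4 rested on about 3517, 5769 and 4118 reads in double-mutant libraries, 584, 740 and 2348 in Tsc1-deleted ones and only 18, 7 and 382 in p53-heterozygous ones.

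**Figure D1:**
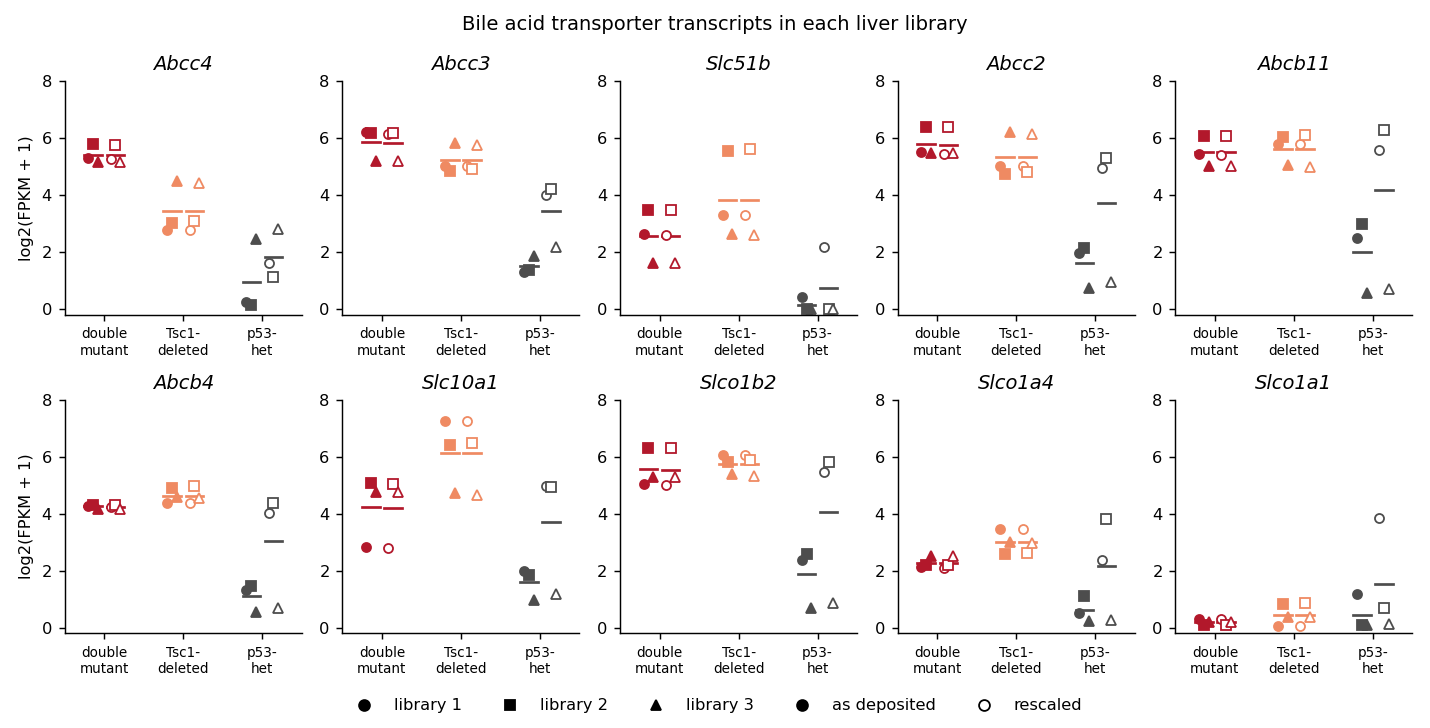
Each panel plots 1 of the 10 transporters, with log2(FPKM + 1) per library, as deposited (filled) and after nuclear rescaling (open), and a line at each mean, for double-mutant, Tsc1-deleted and p53-heterozygous livers (3 libraries each). Abcc4 stands at 34.8 to 53.9 FPKM in the double mutants, above every other library, and rescaling lifts p53-heterozygous libraries 1 and 2 by 10.3 and 11.1 times.

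Abcc3 (ENSMUSG00000020865, chromosome 11) encodes MRP3, an exporter of glucuronidated bile acids and bilirubin toward blood. It stood at 73.0, 71.7 and 35.5 FPKM in double-mutant, 31.2, 27.8 and 55.4 FPKM in Tsc1-deleted and 1.45, 1.58 and 2.62 FPKM in p53-heterozygous libraries. Double-mutant and Tsc1-deleted values overlapped, and all p53-heterozygous values lay below both groups. Double-mutant minus p53-heterozygous gave 4.36 ± 0.79 on the log2 scale (SE, limma adjusted p = 0.00499) as deposited and 2.38 ± 0.58 (limma adjusted p = 0.0544) after rescaling, when the groups still did not overlap. Between double-mutant and Tsc1-deleted livers the estimate was 0.64 as deposited and 0.61 after rescaling, with neither passing. Left out alone, p53-heterozygous library 3 turned the rescaled value to 1.74 (limma adjusted p = 0.0144), so Abcc3 then passed.

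Slc51b (ENSMUSG00000053862, chromosome 9) encodes the beta subunit of the organic solute carrier, which needs Slc51a to work. It stood at 5.27, 10.1 and 2.06 FPKM in double-mutant, 8.84, 45.7 and 5.26 FPKM in Tsc1-deleted and 0.347, 0 and 0 FPKM in p53-heterozygous libraries. Tsc1-deleted library 2 was the highest of the 9, and double-mutant and Tsc1-deleted values overlapped. The partner Slc51a is listed at 0 in all 9 libraries. At an exon length of 709 bases Slc51b rested on about 4 reads in p53-heterozygous library 1, so its fold against that group is not given. Double-mutant minus p53-heterozygous passed as deposited (limma adjusted p = 0.0277) and not after rescaling (limma adjusted p = 0.253), and Tsc1-deleted minus p53-heterozygous did likewise, with limma adjusted p of 0.00976 and 0.127.

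Among the canalicular pumps, Abcc2 (ENSMUSG00000025194, chromosome 19) encodes MRP2, which exports conjugated bilirubin and glutathione conjugates into bile. It stood at 44.3, 82.6 and 43.9 FPKM in double-mutant, 31.1, 25.9 and 72.7 FPKM in Tsc1-deleted and 2.94, 3.45 and 0.69 FPKM in p53-heterozygous libraries. Rescaling put the p53-heterozygous values at 30.2, 38.3 and 0.921, so library 3 alone stayed far down. Against p53-heterozygous livers the double-mutant estimate was 4.16 (limma adjusted p = 0.00617) as deposited and 2.04 (limma adjusted p = 0.273) after rescaling, on the log2 scale. Double-mutant and Tsc1-deleted values overlapped.

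Abcb11 (ENSMUSG00000027048, chromosome 2) encodes the bile salt export pump, the main route of bile acids into bile. It stood at 42.5, 66.1 and 31.7 FPKM in double-mutant, 54.2, 65.1 and 32.0 FPKM in Tsc1-deleted and 4.59, 6.89 and 0.467 FPKM in p53-heterozygous libraries. Double-mutant and Tsc1-deleted livers covered almost the same range, and their difference was -0.11 as deposited and -0.13 after rescaling on the log2 scale. After rescaling, p53-heterozygous libraries 1 and 2 stood at 47.3 and 76.6, as high as the other groups, while library 3 stood at 0.623. The double-mutant estimate against p53-heterozygous livers went with that library. It was 3.51 (limma adjusted p = 0.0135) as deposited, 1.30 (limma adjusted p = 0.575) after rescaling and -0.44 after rescaling without library 3.

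Abcb4 (ENSMUSG00000042476, chromosome 5) encodes MDR2, the flippase that moves phosphatidylcholine into bile and so shields the bile duct from bile acids. It stood at 18.3, 18.8 and 17.0 FPKM in double-mutant, 19.9, 28.7 and 23.2 FPKM in Tsc1-deleted and 1.48, 1.76 and 0.458 FPKM in p53-heterozygous libraries. All 3 double-mutant values lay below all 3 Tsc1-deleted ones, with a log2 difference of -0.38 as deposited and -0.40 after rescaling that did not pass (limma adjusted p = 1 and 0.929). The double-mutant values were the tightest of any member in any group, the highest being 1.105 times the lowest.

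Slc10a1 (ENSMUSG00000021135, chromosome 12) encodes NTCP. It stood at 6.18, 32.3 and 26.0 FPKM in double-mutant, 152.6, 84.0 and 25.1 FPKM in Tsc1-deleted and 2.93, 2.63 and 0.964 FPKM in p53-heterozygous libraries. The Tsc1-deleted values spread 6.07-fold and their lowest, in library 3, lay below 2 of the double-mutant values. Double-mutant minus Tsc1-deleted gave -1.91 ± 0.90 on the log2 scale (SE, limma adjusted p = 1, unadjusted p = 0.0493) as deposited, the lowest estimate of the members in that comparison. Against p53-heterozygous livers, double mutants gave 2.62 (limma adjusted p = 0.0391) as deposited and 0.51 (limma adjusted p = 0.834) after rescaling, while Tsc1-deleted livers gave 4.52 (limma adjusted p = 0.00974) as deposited and 2.44 (limma adjusted p = 0.298) after rescaling.

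Slco1b2 (ENSMUSG00000030236, chromosome 6) encodes OATP1B2, a sodium-independent carrier of bile acids, bilirubin and drugs. It stood at 32.1, 77.7 and 38.4 FPKM in double-mutant, 65.4, 55.4 and 41.0 FPKM in Tsc1-deleted and 4.19, 4.93 and 0.611 FPKM in p53-heterozygous libraries. The first pair of groups overlapped, and rescaling put the p53-heterozygous values at 43.1, 54.8 and 0.815. Slco1b2 ran with Abcb11 in every library, its FPKM being 0.716 to 1.31 times that of Abcb11 over all 9, though Abcb11 sits on the opposite face of the cell.

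Slco1a4 (ENSMUSG00000030237, chromosome 6) encodes OATP1A4, which is more abundant in female than in male mouse liver. It stood at 3.36, 3.57 and 4.64 FPKM in double-mutant, 9.96, 4.93 and 7.07 FPKM in Tsc1-deleted and 0.412, 1.18 and 0.163 FPKM in p53-heterozygous libraries. The double-mutant values all lay below the Tsc1-deleted ones, with a log2 difference of -0.74 as deposited that did not pass. Against p53-heterozygous livers the double-mutant estimate was 1.66 (limma adjusted p = 0.0379) as deposited, 0.09 (limma adjusted p = 0.963) after rescaling and -0.26 after median-ratio scaling, so its direction depended on the scaling.

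Slco1a1 (ENSMUSG00000041698, chromosome 6) encodes OATP1A1, which is more abundant in male than in female mouse liver. It stood at 0.241, 0.076 and 0.137 FPKM in double-mutant, 0.042, 0.784 and 0.305 FPKM in Tsc1-deleted and 1.29, 0.055 and 0.066 FPKM in p53-heterozygous libraries. It failed the filter of at least 1 FPKM in at least 3 libraries, so it was not tested and is the 1 member missing from the counts. Xist, the RNA of the inactive X chromosome, stood at 25.9, 0.01 and 28.4 FPKM in double-mutant, 24.1, 0.008 and 0.003 FPKM in Tsc1-deleted and 0.022, 6.92 and 0.182 FPKM in p53-heterozygous libraries, and the labels give no sex. Its close copies Slco1a4, Slco1a5 and Slco1a6 can share reads with it, so its low values and those of Slco1a4 are uncertain to that extent. Slco1a1 was low both in libraries with Xist and in most libraries without it.

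Counted over the 9 tested members, the comparison of double-mutant with Tsc1-deleted livers called 0 members as deposited and 0 after rescaling, where 0.025% and 0.0166% of the 12014 tested genes were called. At an unadjusted p under 0.05 it had 2 members as deposited (Abcc4 and Slc10a1) and 1 after rescaling (Abcc4), with 256 of all genes (2.13%) and 505 (4.2%) there. Without overlap, 1 member was higher in double mutants, against 11.4% of all genes, and 2 were lower (Abcb4 and Slco1a4), against 3.18%. The median over the 9 members was -0.21 as deposited, and that over all tested genes was 0.29. By role, 2 of the 3 exporters to blood, 1 of the 3 exporters to bile and 0 of the 3 tested uptake carriers had estimates above 0.

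Set against p53-heterozygous livers, double mutants had 9 of 9 members called higher as deposited, where 31.9% of all tested genes were called higher, and 1 of 9 (Abcc4) after rescaling, where 2.12% were. Without overlap, 9 members were higher as deposited, against 41.3% of all genes, and 3 (Abcc4, Abcc3 and Abcc2) after rescaling, against 17.4%. The median over members was 3.51 as deposited and 1.49 after rescaling, and over all genes 1.38 and 0.18. The 12 hepatocyte markers had medians of 4.12 and 1.71 in the same comparison, with 10 called higher as deposited and 0 after rescaling (0 at an unadjusted p under 0.05), so their medians were above those of the members on both scales. Tsc1-deleted livers had 8 of 9 members called higher than in p53-heterozygous ones as deposited, all but Abcc4, where 12.1% of all genes were called higher. After rescaling 0 members passed in limma, with 3 at an unadjusted p under 0.05, against 16.8% of all genes, while 22 genes (0.183%) were called in either direction. Without overlap 9 members were higher as deposited, against 27.4% of all genes, and 3 members (Abcc3, Slc51b and Abcb4) after rescaling, against 8.75% of all genes. Both comparisons share the p53-heterozygous libraries. As deposited, 4 members were called in double mutants without double-mutant library 1 and 2 without double-mutant library 2, and 0 in Tsc1-deleted livers without any 1 Tsc1-deleted library. With p53-heterozygous libraries 1 and 2 left out, a choice made after seeing the data, 7 members were called in double mutants and 8 in Tsc1-deleted livers after rescaling. That fit keeps 1 p53-heterozygous library, assumed to vary like the other groups, and it is the one with the low hepatocyte markers, rescaled to 774 against 43717 and 44580 in the libraries left out.

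**Figure D2:**
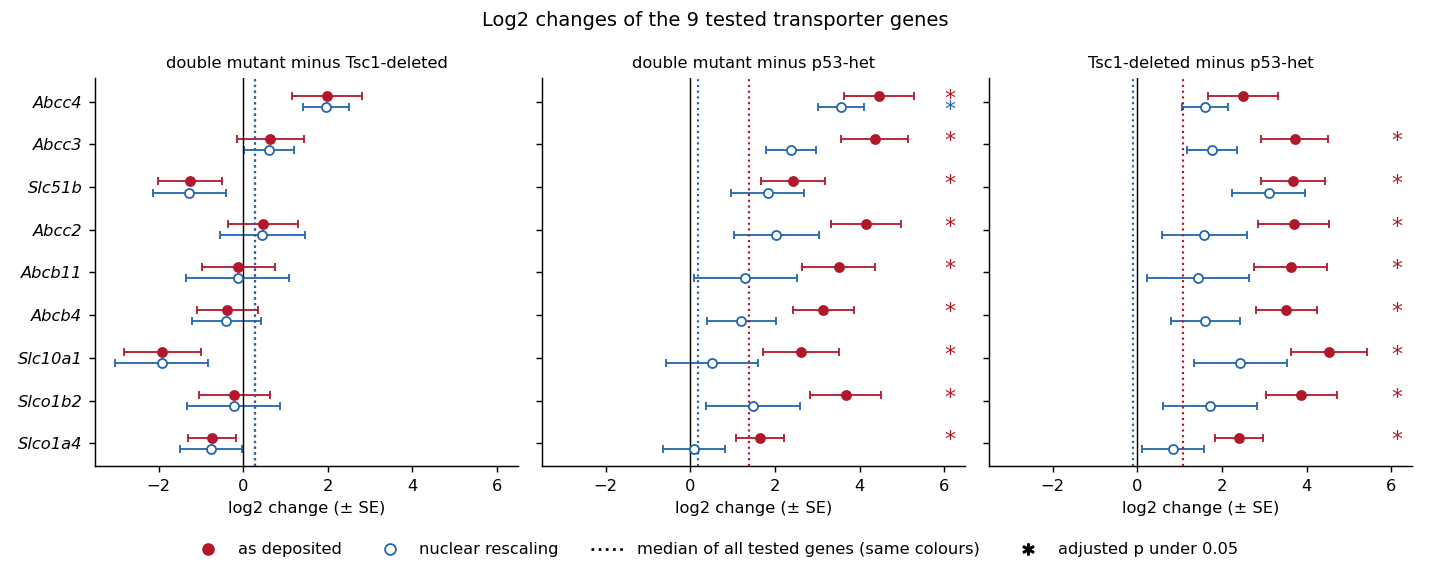
Points are limma log2 changes of the 9 tested members with bars of 1 SE, as deposited and after nuclear rescaling, for double mutants over Tsc1-deleted livers, double mutants over p53-heterozygous livers and Tsc1-deleted over p53-heterozygous livers, with dotted lines at the median of all tested genes and stars at an adjusted p under 0.05. Against p53-heterozygous livers all members move toward 0 on rescaling, and Abcc4 in double mutants stays at 3.55.

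A ratio of 2 members within a library does not depend on how the library is scaled. These ratios were chosen after the values had been seen and are given as a description. Abcc4 over Abcb11, the blood-facing over the bile-facing exporter, stood at 0.907, 0.817 and 1.10 in double-mutant, 0.109, 0.111 and 0.672 in Tsc1-deleted and 0.0439, 0.0153 and 9.53 in p53-heterozygous libraries. Double mutants were above Tsc1-deleted livers without overlap, while p53-heterozygous library 3 was the highest of all and the other libraries of that group the lowest. Abcc4 over Slc10a1, export to blood over uptake, stood at 6.24, 1.67 and 1.34 in double-mutant, 0.0388, 0.0857 and 0.856 in Tsc1-deleted and 0.0687, 0.040 and 4.62 in p53-heterozygous libraries. Over its near relatives Abcc3 and Abcc2, Abcc4 stood at 0.528 to 0.982 and 0.653 to 0.871 in double mutants, against 0.19 to 0.389 and 0.19 to 0.296 in Tsc1-deleted livers. In p53-heterozygous libraries these 2 ratios were 0.139, 0.0667 and 1.70 over Abcc3 and 0.0687, 0.0306 and 6.45 over Abcc2. Library 3 of that group was thus again above every double-mutant library. Abcc4 was higher in double mutants than in Tsc1-deleted livers without overlap in 7 of 7 such ratios, which all share the Abcc4 value. Tsc1-deleted library 3 stood closest to the double mutants in each of the 4 ratios given.

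**Figure D3:**
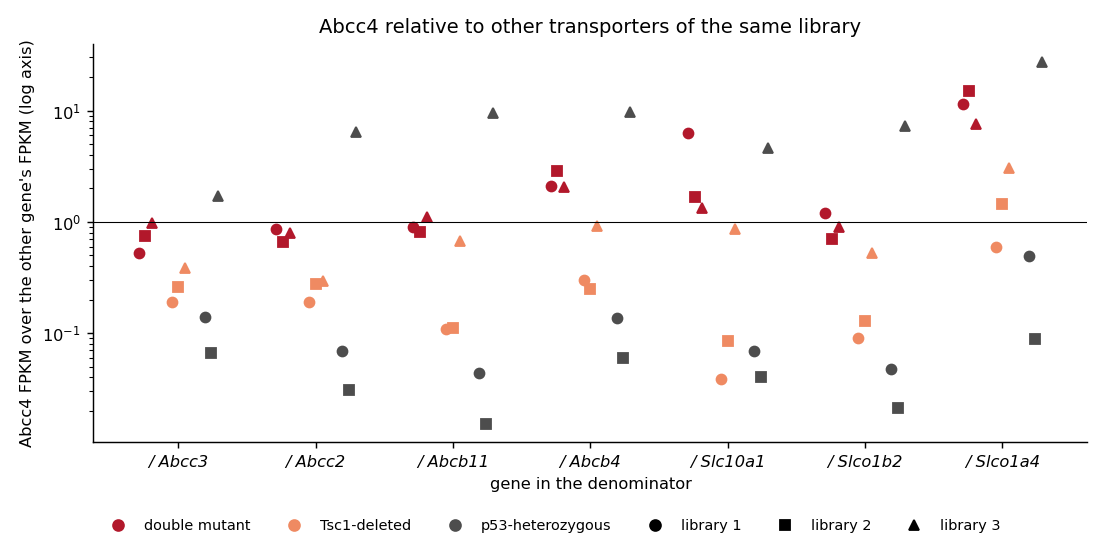
Each column of points plots the ratio of Abcc4 FPKM to that of another member in the same library, on a log axis, for double-mutant, Tsc1-deleted and p53-heterozygous livers (3 libraries each). The double-mutant points lie above the Tsc1-deleted ones, and p53-heterozygous library 3 lies far above the other p53-heterozygous libraries. It also lies above all double-mutant points in every column except that of Slc10a1.

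Summed by role, exporters to blood took 44.3%, 32.6% and 30.9% of the members' FPKM in double-mutant libraries, 12.1%, 23.4% and 29.0% in Tsc1-deleted ones and 10.1%, 7.47% and 67.4% in p53-heterozygous ones. The double-mutant shares were all above the Tsc1-deleted ones. Uptake carriers took 15.9%, 27.3% and 29.5% in double-mutant libraries, 60.1%, 42.0% and 25.9% in Tsc1-deleted ones and 44.5%, 39.0% and 17.2% in p53-heterozygous ones, with overlap between double-mutant and Tsc1-deleted livers through Tsc1-deleted library 3. Exporters to bile held 39.6% to 40.2% in the 3 double-mutant libraries, against 27.8% to 45.1% in Tsc1-deleted and 15.4% to 53.6% in p53-heterozygous ones.

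**Figure D4:**
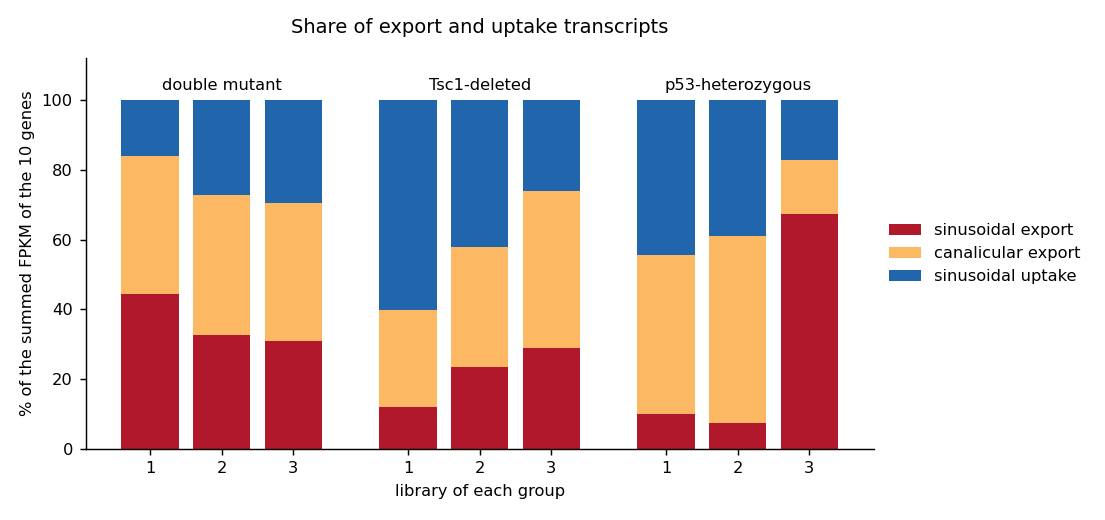
Bars start at 0 and split the summed FPKM of the 10 members in each library, in percent, into export to blood, export to bile and uptake. Export to blood holds 30.9% to 44.3% in the double-mutant libraries and 12.1% to 29.0% in the Tsc1-deleted ones, and 67.4% in p53-heterozygous library 3.

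The genes most like Abcc4 over the 9 libraries, by Pearson's r of log2 values after rescaling among 8619 genes with a mean of at least 2 FPKM, were Psmd11, a proteasome subunit (r = 0.992), Atf6, a sensor of protein folding in the endoplasmic reticulum (0.985), Vcp, an ATPase that extracts proteins for degradation (0.983), Tm9sf4 (0.979) and Tgfa, a ligand of the epidermal growth factor receptor (0.978). Atf6 stood at 10.8, 12.4 and 10.03 FPKM in double-mutant, 4.08, 4.84 and 6.85 FPKM in Tsc1-deleted and 0.332, 0.236 and 3.80 FPKM in p53-heterozygous libraries. Of the members, Abcc3 was the most like Abcc4 (r = 0.689), at rank 1799 of those genes, and Abcb11 (0.041), Slc10a1 (-0.15) and Slco1a4 (-0.23) were among the least alike. The 9 points share their libraries and genotypes, so r describes likeness over these libraries and nothing more.

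The other genes of the pathway were read from lists. Among 16 tested of 18 other hepatic transporters, 14 rose in double-mutant against p53-heterozygous livers as deposited and 2 after rescaling. Of all tested genes 31.9% and 2.12% were called higher there, and the counts of the next lists in this comparison stand against the same shares. The 2 were Abcb1a, a canalicular drug pump, and Atp8b1, the flippase that keeps the canalicular membrane intact. Atp8b1 stood at 8.34, 8.02 and 5.98 FPKM in double-mutant, 3.32, 3.27 and 6.48 FPKM in Tsc1-deleted and 0.196, 0.124 and 0.726 FPKM in p53-heterozygous libraries, and its rescaled log2 change against the last group was 1.78 (limma adjusted p = 0.0274). The 16 synthesis and conjugation enzymes had 12 called higher as deposited and 1 after rescaling, Cyp39a1, which hydroxylates oxysterols on the way to bile acids. Cyp39a1 stood at 59.5, 19.8 and 20.5 FPKM in double-mutant, 6.02, 6.10 and 16.0 FPKM in Tsc1-deleted and 0.206, 0.347 and 1.39 FPKM in p53-heterozygous libraries. It lay higher in double mutants than in Tsc1-deleted livers without overlap, as did Abcc4 and 11.4% of all tested genes. The log2 difference, 1.67 as deposited, did not pass (limma adjusted p = 1). Cyp7a1, the rate-limiting enzyme of bile acid synthesis, stood at 1.27, 6.63 and 10.6 FPKM in double-mutant, 34.1, 8.93 and 9.49 FPKM in Tsc1-deleted and 0.996, 0.335 and 0.225 FPKM in p53-heterozygous libraries, with overlap between the first 2 groups. It was named after its values had been seen.

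Of 17 tested regulators, 11 were called higher in double-mutant than in p53-heterozygous livers as deposited and 1 after rescaling, Klb, the co-receptor of the gut hormone FGF15 that restrains bile acid synthesis. Nr1h4, the bile acid receptor FXR, stood at 32.1, 35.1 and 24.7 FPKM in double-mutant, 36.3, 30.2 and 52.4 FPKM in Tsc1-deleted and 8.57, 6.97 and 6.49 FPKM in p53-heterozygous libraries, and double-mutant and Tsc1-deleted values overlapped. Nr0b2, the repressor SHP that FXR induces, stood at 15.4, 11.96 and 11.4 FPKM in double-mutant, 14.9, 44.2 and 5.49 FPKM in Tsc1-deleted and 2.65, 1.55 and 0.664 FPKM in p53-heterozygous libraries, so Tsc1-deleted library 2 was the highest for Nr0b2 as it was for Slc51b. Nr1i3, the receptor CAR, stood at 4.02, 6.502 and 6.19 FPKM in double-mutant and 21.2, 17.2 and 7.94 FPKM in Tsc1-deleted libraries. It was lower in double mutants without overlap, as were 3.18% of all tested genes, at a log2 difference of -1.25 that did not pass (limma adjusted p = 1). Nr1h4, Nr0b2 and Nr1i3 were named after their values had been seen. Of 10 genes of the canalicular scaffold, 5 were called higher in double-mutant than in p53-heterozygous livers as deposited and 2 after rescaling, Pdzk1, a scaffold that anchors transporters, and Myo5b, the motor that brings Abcb11 to the canaliculus. Pdzk1 stood at 16.6, 11.3 and 19.3 FPKM in double-mutant, 7.58, 3.86 and 12.8 FPKM in Tsc1-deleted and 0.229, 0.376 and 0.086 FPKM in p53-heterozygous libraries.

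Of 18 NRF2 targets, 15 were called higher in double-mutant than in p53-heterozygous livers as deposited, and 5 after rescaling. They were Gclm, which sets the rate of glutathione synthesis with its partner, the glutathione transferases Gsta2 and Gsta4, the epoxide hydrolase Ephx1 and the carbonyl reductase Cbr3. Gsta4, the smallest of the 5 changes, was named after its values had been seen. Gclm stood at 24.005, 34.7 and 37.7 FPKM in double-mutant, 22.0, 14.1 and 18.0 FPKM in Tsc1-deleted and 0.36, 0.838 and 5.22 FPKM in p53-heterozygous libraries. It was higher in double mutants than in Tsc1-deleted livers without overlap, as were 11.4% of all tested genes. The log2 difference of 0.80 did not pass (limma adjusted p = 1). The median rescaled log2 change of the list against p53-heterozygous livers was 2.65, that of the 12 CAR and PXR targets 0.57 and that of all genes 0.18. Between double-mutant and Tsc1-deleted livers 0 of the 88 tested genes of these lists passed in limma as deposited, 4 had an unadjusted p under 0.05, against 2.13% of all genes, and the deposited medians were 0.63 for NRF2 targets, 0.64 for the scaffold, 0.51 for the other transporters, 0.09 for the regulators, -0.27 for synthesis and -0.74 for CAR and PXR targets, with 0.29 for all genes. Against p53-heterozygous livers, Tsc1-deleted ones had 8 of the 16 other transporters, 13 of the 16 synthesis enzymes, 7 of the 17 regulators, 2 of the 10 scaffold genes, 12 of the 18 NRF2 targets and 6 of the 12 CAR and PXR targets called higher as deposited. Of all genes 12.1% were called higher there. After rescaling 0 of the 88 passed in limma and 29 had an unadjusted p under 0.05, against 16.8% of all genes.

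Among the markers of other liver cells, the cholangiocyte and progenitor list had higher estimates in double-mutant than in Tsc1-deleted livers, with none called, while the medians were 0.53 for Kupffer cell, 0.12 for stellate and -0.22 for endothelial markers. The median over all tested genes was 0.29. The Kupffer cell list was split, with 5 of 8 tested estimates above 0, while 2 markers were lower and 0 higher without overlap. Of all genes 3.18% were lower and 11.4% higher without overlap. The 14 cholangiocyte and progenitor markers summed to 3809, 1061 and 1719 FPKM in double-mutant, 581, 564 and 2797 FPKM in Tsc1-deleted and 16.1, 10.8 and 1981 FPKM in p53-heterozygous libraries. Most of each sum was Spp1, the secreted protein osteopontin, and without it the other 13 markers summed to 252.8, 112.1 and 289.7 FPKM in double-mutant, 67.8, 71.6 and 117.5 FPKM in Tsc1-deleted and 2.13, 1.77 and 339.8 FPKM in p53-heterozygous libraries. On either sum Tsc1-deleted library 3 lay above the lowest double-mutant library. Tsc1-deleted library 3 and p53-heterozygous library 3, the highest of their groups for these markers, were also the highest of their groups for Abcc4. The double mutants went the other way, since library 2 had their highest Abcc4 value, 53.9 FPKM, and their lowest marker sum with or without Spp1. All 12 tested markers of the list had estimates above 0 in double-mutant minus Tsc1-deleted livers, with a median of 0.92, and 0 passed in limma. At an unadjusted p under 0.05 there was 1 as deposited and 2 after rescaling, against 2.13% and 4.2% of all genes. Against p53-heterozygous livers, double mutants had 10 of the 12 called higher as deposited and 1 after rescaling. Of all genes 31.9% and 2.12% were called higher there. Tsc1-deleted livers had 1 called higher on each scale, against 12.1% and 0.0916% of all genes. The 1 marker called on both scales was Krt23, a keratin. Its rescaled log2 changes were 2.97 in double mutants (limma adjusted p = 0.00553) and 2.25 in Tsc1-deleted livers (limma adjusted p = 0.0412). The defining keratin Krt19, named after its values had been seen, stood at 34.2, 13.5 and 48.4 FPKM in double-mutant, 6.23, 6.22 and 11.2 FPKM in Tsc1-deleted and 0.174, 0.285 and 209.5 FPKM in p53-heterozygous libraries, and 5 of the 14 markers were at 0 in p53-heterozygous libraries 1 and 2. The 12 hepatocyte markers summed to 24194, 24969 and 26865 FPKM in double-mutant and 37416, 31671 and 27913 FPKM in Tsc1-deleted libraries, lower in double mutants without overlap as deposited. After rescaling they overlapped, at 23306 to 26865 in double-mutant and 26707 to 37309 in Tsc1-deleted libraries. The part of cell mix in the differences was not tested.

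**Figure D5:**
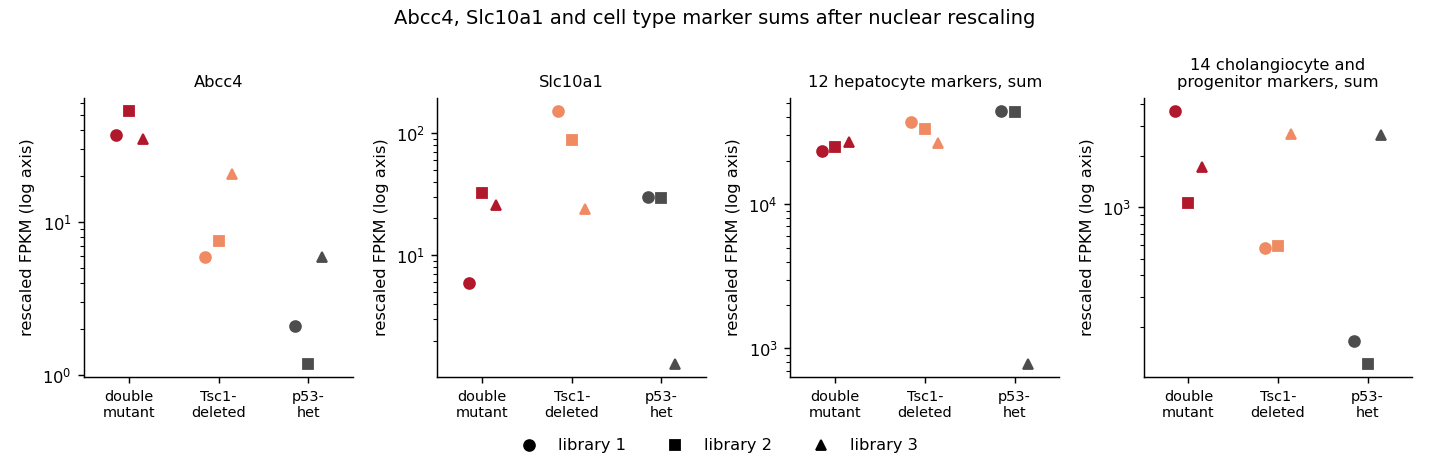
Panels show per library, on log axes and after nuclear rescaling, Abcc4, Slc10a1 and the summed FPKM of 12 hepatocyte and 14 cholangiocyte and progenitor markers, for double-mutant, Tsc1-deleted and p53-heterozygous livers (3 libraries each). The rescaled hepatocyte sum is 774 in p53-heterozygous library 3, against 43717 and 44580 in libraries 2 and 1, and the cholangiocyte sum is 2643 there, against 120.4 and 165.3 in libraries 2 and 1.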

How the data were processed

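Liver RNA of 9 libraries was analysed, 3 per genotype. Per the labels' protocols, RNA was extracted with TRIzol, depleted of ribosomal RNA and sequenced as single reads, while another label calls the molecule polyA RNA. Per the submitters' processing notes, cutadapt, STAR and StringTie were used with genome build mm9; their versions and settings are not given in the sources used here. The deposited tables hold 1 FPKM value per gene and library made by the authors, a unit read from the values because the header does not name it. No counts were given, and depth (10600000 to 18500000 reads) was estimated from the FPKM step of 1 read. Of 52550 identifiers, 52403 matched GENCODE M21, used for symbols, lengths and overlaps only.

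A gene was tested if 3 or more libraries reached 1 FPKM, which left 12014 genes, and they were tested as log2(FPKM + 1) with limma 3.58.1 (R 4.3.3; intensity trend, robust moderation), all 9 libraries in 1 fit, with Benjamini-Hochberg adjustment over these genes and a threshold of 0.05. The same fit was run after nuclear rescaling. Nothing says that libraries are separate animals, so a p value reflects library-to-library spread, which may be technical. The members and lists were chosen with earlier results of these data known. The 10 members, Trp53, Tsc1 and Xist were to be named whatever their values, with the 5 genes most like Abcc4 and, from each list, up to 4 genes passing on both scales or up to 3 of the highest mean; the text says where another gene was named after its values had been seen. Trp53 stood at 9.68, 5.88 and 6.90 FPKM in double-mutant, 7.07, 8.55 and 16.4 FPKM in Tsc1-deleted and 0.53, 0.495 and 15.4 FPKM in p53-heterozygous libraries. The test was also run on simulated data, with the spread of each gene capped at the median spread. That run does not reach the scatter of the p53-heterozygous libraries. Other settings were pseudocounts of 0.1 and 5, no filter or 5 FPKM, no trend, median-ratio scaling, 6 libraries only, a replicate block, Xist as a covariate and leaving out libraries. Tables and figures used Python 3.11.15, pandas 2.3.3, numpy 2.4.6, scipy 1.17.1 and matplotlib 3.10.9.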

Additional observations from a re-analysis of the deposited data

How the results depend on the processing

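Between double-mutant and Tsc1-deleted livers the count of members called stayed at 0 under all alternatives run, and Abcc4 kept its direction there, at 1.56 to 2.504 on the log2 scale (limma adjusted p from 0.177 to 1). Against p53-heterozygous livers the count in double mutants, 9 as deposited, was 1 with nuclear rescaling, 1 with median-ratio scaling, 1 with the replicate block and nuclear rescaling, 1 with Xist as a covariate and nuclear rescaling, and 0 with 6 libraries only and nuclear rescaling. Leaving out 1 library put it between 0 and 9. As deposited it was 4 without double-mutant library 1 and 2 without library 2 of that group. In Tsc1-deleted livers the count, 8 as deposited, was 0 with nuclear rescaling, with median-ratio scaling, with 6 libraries only on either scale, and with the replicate block or Xist and nuclear rescaling. It lay between 0 and 9 when 1 library was left out, and was 0 as deposited without any 1 Tsc1-deleted library. The replicate block on deposited values called 9 members in each comparison against p53-heterozygous livers, where the numbers were not taken as pairing. Same-numbered libraries had a correlation of deviations over 0.1 in 4 of 9 pairs as deposited (-0.20 to 0.32) and in 5 of 9 after rescaling (-0.20 to 0.35), which include all 3 pairs of Tsc1-deleted with p53-heterozygous libraries, for which the block with rescaling called 0 members. A library was most like its own number in another group in only 6 of 18 cases on either scale. The highest deposited correlation, 0.407, was between p53-heterozygous library 1 and double-mutant library 2. Abcc4 in double-mutant against p53-heterozygous livers was called in 27 of 33 alternatives (limma adjusted p from 9e-06 to 0.0846), and Abcc4 in Tsc1-deleted livers in 6 of 33.

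Some directions turned. For double-mutant minus Tsc1-deleted, leaving out 1 library gave -0.40 to 0.13 for Abcb11 and -0.58 to 0.044 for Slco1b2 as deposited. With rescaling Abcb11 turned to 0.11 without Tsc1-deleted library 2 and to 0.097 without double-mutant library 3, and Slco1b2 to 0.038 without double-mutant library 1. For double-mutant minus p53-heterozygous it gave -0.44 to 4.00 for Abcb11, -0.74 to 3.30 for Slc10a1, -0.10 to 4.02 for Slco1b2 and -0.85 to 1.91 for Slco1a4. The negative ends came with rescaling without p53-heterozygous library 3, and Slco1a4 was -0.031 with rescaling without double-mutant library 3. For Tsc1-deleted minus p53-heterozygous it gave -0.31 to 4.11 for Abcb11 and -0.093 to 2.65 for Slco1a4. Slco1a4 in double-mutant minus p53-heterozygous livers was also -0.26 with median-ratio scaling and -0.12 with Xist as a covariate and nuclear rescaling. The cause was not tested. Depth limits Slc51b and Abcc4 in p53-heterozygous libraries 1 and 2, where they rest on at most 18 estimated reads. Estimated reads were also few in p53-heterozygous library 3, at 0 for Slc51b, 14 for Slco1a4, 28 for Slc10a1, 32 for Abcb11 and 40 for Slco1b2.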
